A study of Homo sapiens with 3 samples.

Results

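The genes that encode the receptors PDGFRA, PDGFRB and KIT and their ligands PDGFA, PDGFB, PDGFC, PDGFD and KITLG were taken by symbol from gene tables of 62754 genes, and all 8 were found once in each table. The cells were primitive neural progenitor cells (pNPCs), an early neural stage that is kept dividing in culture, derived from H1, an established human embryonic stem cell line. The labels give 1 wild-type group of 3 replicates, with no second genotype or treatment, so values were compared between genes and between replicates. By the growth protocol the medium held N2 and B27 supplements, FGF2 at 20 ng/ml, the GSK3 inhibitor CHIR99021 at 3 µM, leukaemia inhibitory factor at 10 ng/ml, the TGF-beta receptor inhibitor SB431542 at 2 µM and the ROCK inhibitor Y-27632 at 10 µM, and no PDGF or KIT ligand is named among these additions. All replicates share 1 parental line, and whether they came from separate cultures is not stated, so a p-value here reflects the spread of these 3 samples and that spread may be technical.

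PDGFRA, PDGFRB and KIT are closely related receptor tyrosine kinases with an extracellular part of immunoglobulin-like domains and a split kinase domain inside the cell. A dimeric ligand pulls receptor chains together, the chains phosphorylate each other, and adaptors then pass the signal to RAS, PI3K and PLC-gamma. PDGF-A and PDGF-C act mainly through PDGFRA, PDGF-B through either receptor and PDGF-D mainly through PDGFRB, while KITLG (stem cell factor) is the ligand of KIT. PDGFRA is well known from oligodendrocyte precursors and from cranial neural crest and its mesenchyme, and PDGFRB from pericytes and mesenchyme. KIT is well known from melanoblasts, germ cells and blood progenitors.

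Totals per library were between 30038114 and 38400092 expected counts (estimated reads per gene). A gene is called detected when its TPM (a level per transcript length, on the same total in each library) was at least 1 in all 3 libraries. Neural progenitor markers were detected in 14 of 16 cases, led by VIM at 1912 ± 194 TPM, NES at 181 ± 21.1 TPM and ZIC2 at 118 ± 19.7 TPM (mean ± SD, n = 3, as in all such values here), while OTX2 at 1.33 ± 0.45 TPM and PAX6 at 0.44 ± 0.34 TPM were not. Counts of replicate 1 stood apart, with a chi-square per degree of freedom of 82.5 against replicate 2 and 82.6 against replicate 3, and of 19.4 between replicates 2 and 3. The length of a gene minus its effective length, which follows the mean fragment length of a library, was 217 bases in replicate 1, 254 in replicate 2 and 259.8 in replicate 3 (median of 11480 genes).

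Of the 8 genes 6 were detected, namely all 3 receptors and the ligands PDGFC, PDGFD and KITLG, and PDGFA and PDGFB were not. PDGFRB had the highest mean at 23.5 ± 7.48 TPM, followed by KIT at 21.4 ± 1.26 TPM, PDGFRA at 14.0 ± 7.90 TPM, KITLG at 13.4 ± 3.32 TPM and PDGFC at 11.6 ± 1.18 TPM. PDGFD lay lower at 3.77 ± 0.99 TPM, and PDGFA and PDGFB were lowest at 0.37 ± 0.11 and 0.23 ± 0.11 TPM. The ranges of neighbours in this order overlapped for PDGFRB and KIT, for PDGFRA and KITLG, for KITLG and PDGFC, and for PDGFA and PDGFB. Overlap of ranges is not a test of difference. Within libraries PDGFA was above PDGFB in 3 of 3, and each of the other overlapping pairs kept the order of the means in 2 of 3. The ranges did not overlap for KIT and PDGFRA, for PDGFC and PDGFD, or for PDGFD and PDGFA. In replicates 2 and 3 the order of the 8 genes was the same as that of the means. In replicate 1 KIT was first and PDGFRA stood in place 5, below PDGFC and KITLG. Against the 12354 detected protein-coding genes these were middling to low levels, since the mean TPM of PDGFRB exceeded 53.4% of them, that of PDGFRA 37.9% and that of PDGFD 11.1%.

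**Figure D1:**
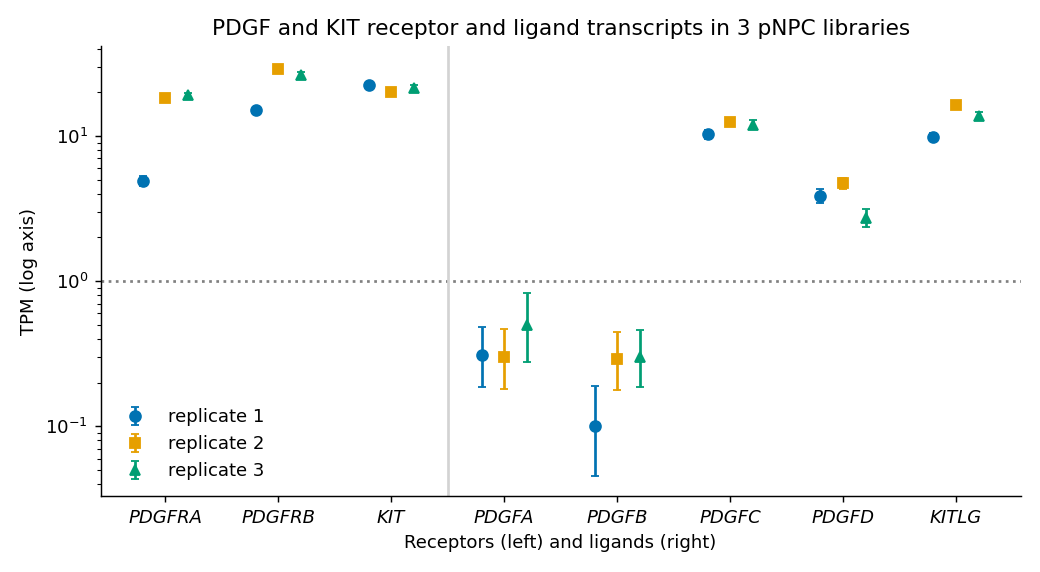
TPM (log axis) of the receptor genes PDGFRA, PDGFRB and KIT and of the 5 ligand genes in each of 3 pNPC libraries, with Poisson 95% intervals of counting error as bars and the detection minimum of 1 TPM as a dotted line. PDGFA and PDGFB lie below the line in every library, and PDGFRA is lower in replicate 1, at 4.92 TPM, than in replicates 2 and 3.

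PDGFRA (ENSG00000134853.12, chromosome 4, 54229293 to 54298245, GRCh38), the alpha receptor, had 679, 2690 and 2146 expected counts in replicates 1, 2 and 3. These corresponded to 4.92, 18.1 and 19.0 TPM. Replicate 1 was low and replicates 2 and 3 were close, and the Poisson 95% interval of replicate 1, 4.56 to 5.30 TPM, lay far below that of replicate 2, 17.5 to 18.8 TPM, and that of replicate 3, 18.2 to 19.9 TPM. Intervals here cover counting error only. In log2 CPM, which scales counts for library size but not for length, PDGFRA stood at 4.30, 6.14 and 6.14, and replicate 1 differed by -1.835 from the mean of replicates 2 and 3, a 3.57-fold lower CPM.

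Whether this exceeded the spread of genes of like abundance was tested across all genes. In edgeR's negative binomial fit of 1 group, with Benjamini-Hochberg adjustment, 271 of 17046 genes had excess spread at an adjusted p under 0.05, which is 1.59% of the genes tested, and 211 of them (1.24%) had replicate 1 below the mean of replicates 2 and 3, while 60 (0.352%) had it above. PDGFRA was among the 211 genes, with an adjusted p of 0.000325, at the 59th smallest p. The trend of the fit gave a coefficient of variation of 17.9% for a gene of this abundance, and the highest and lowest libraries of PDGFRA differed by 1.84 log2 units, more than for 97.8% of the genes tested. The call rested on replicate 1. Without it the other libraries differed by 0.002 log2 units (adjusted p = 0.9999 in the same edgeR fit, in which 117 genes were called).

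Long transcripts as a whole were lower in replicate 1. Over the 1420 tested genes of 5000 to 7000 bases, the class of PDGFRA, the median deviation of replicate 1 was -0.40 log2 CPM, against -0.005 over all genes tested. Of these 1420 genes 28, PDGFRA included, had a deviation as low as that of PDGFRA or lower. With the dependence of counts on length fitted as a smooth curve and taken out library by library, the deviation of PDGFRA was -1.43 and its adjusted p in edgeR 0.00033.

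**Figure D2:**
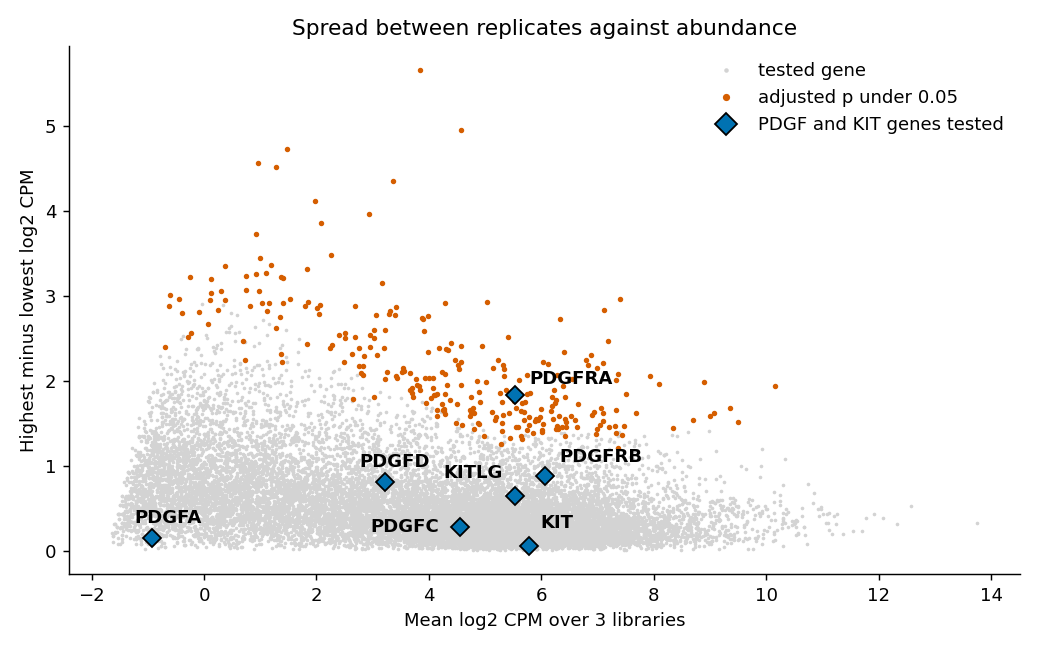
Highest minus lowest log2 CPM over the 3 libraries (vertical axis) against mean log2 CPM (horizontal axis) for 17046 genes, with the 271 genes of adjusted p under 0.05 in orange and the 7 tested PDGF and KIT genes as diamonds. PDGFRA, at a range of 1.84, lies among the orange points, and the other 6 diamonds lie in the grey cloud.

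PDGFRB (ENSG00000113721.14, chromosome 5, 150113839 to 150155845), the beta receptor, had 1631, 3324 and 2190 expected counts and 15.0, 29.1 and 26.3 TPM in replicates 1, 2 and 3. Replicate 1 was again the lowest, by -0.74 log2 CPM from replicates 2 and 3 on average, but this spread did not pass the test in edgeR (adjusted p = 0.73, unadjusted p = 0.058). PDGFRA made up 24.7%, 38.4% and 42.0% of the TPM summed over both PDGF receptors. On the log2(TPM + 1) scale PDGFRA minus PDGFRB was -1.43, -0.65 and -0.45, so PDGFRA was the lower receptor in 3 of 3 libraries. A two-sided exact permutation test by sign flips gave p = 0.25, the smallest that n = 3 allows, and 0.3 after Benjamini-Hochberg adjustment over the 6 pairs of genes tested, so no pair could reach 0.05.

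KIT (ENSG00000157404.17, chromosome 4, 54657957 to 54740715), the receptor of stem cell factor, had 1947, 2090 and 1659 expected counts and 22.6, 20.1 and 21.4 TPM. It was the steadiest detected member, with a coefficient of variation of 5.9% in TPM, and its log2 CPM of 5.82, 5.77 and 5.77 spanned 0.05 (adjusted p = 0.9999 in edgeR), or 0.24 with the length curve taken out. KIT is the next receptor gene after PDGFRA on chromosome 4, and its start lies 359.7 kb beyond the end of PDGFRA on the same strand. The abundance-weighted transcript length of KIT was 3610, 4256 and 4083 bases in replicates 1, 2 and 3, over 24 annotated transcripts. It was shortest in replicate 1, as was that of PDGFRA at 5656, 5961 and 5831 bases, while that of PDGFRB was shortest in replicate 3 at 4378 bases, against 4504 and 4642 bases in replicates 1 and 2.

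The stretches before the start sites of the receptor genes PDGFRA, PDGFRB and KIT are given as a description. They were not compared between replicates, which share the same parental line, and any bearing on the spread was not tested. They come from RefSeq (GRCh38.p14) and run 5′ to 3′ on the strand of the gene, up to the earliest start in RefSeq or GENCODE release 29, with CCAAT and GGGCGG (either strand) in capitals. PDGFRA is chr4:54229043-54229096 (plus strand), PDGFRB is chr5:150155873-150156095 (minus strand) and KIT is chr4:54657707-54657917 (plus strand).
PDGFRA: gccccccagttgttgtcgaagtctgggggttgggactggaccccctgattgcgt
PDGFRB: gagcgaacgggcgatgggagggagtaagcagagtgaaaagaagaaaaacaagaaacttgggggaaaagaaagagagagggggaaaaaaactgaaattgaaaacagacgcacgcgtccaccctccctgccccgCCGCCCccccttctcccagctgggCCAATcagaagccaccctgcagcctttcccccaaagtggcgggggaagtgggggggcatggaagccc
KIT: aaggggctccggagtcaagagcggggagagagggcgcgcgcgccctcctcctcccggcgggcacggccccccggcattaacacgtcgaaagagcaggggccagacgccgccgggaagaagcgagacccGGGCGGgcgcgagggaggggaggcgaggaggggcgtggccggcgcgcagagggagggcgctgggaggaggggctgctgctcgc
Over the 250 bases before the RefSeq start, GC content was 46.8% for PDGFRA, 58.4% for PDGFRB and 76.4% for KIT, and the numbers of CpG were 8, 9 and 34. The same window had a lower GC content than that of PDGFRA in 25.5% of 35116 RefSeq promoters of all gene types, and a lower one than that of KIT in 91.9%. Searched on both strands, CCAAT was found once in PDGFRB and GGGCGG once each in PDGFRB and KIT, while neither was in the window of PDGFRA. The RefSeq promoters hold 2 starts for PDGFRA, and only the window at the start of the gene was measured and searched. CCAAT stood in 32.0% and GGGCGG in 42.6% of all promoters. The motif TATAAA, present in 10.7% of promoters, was in none of the 3 windows but was found once before KITLG, with its first base 29 bases before the RefSeq start. In GENCODE release 29 the KITLG gene covers that whole window. The GENCODE genes also reach into the other windows, leaving 54 of 250 bases before PDGFRA, 223 before PDGFRB and 211 before KIT. These windows are thus not all upstream sequence. RefSeq promoter entries matched 6 of the 8 genes, and PDGFB and PDGFC had none.

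Among the ligands of PDGFRA, PDGFC carried nearly all of the transcript level. PDGFC (ENSG00000145431.11, chromosome 4, 156760454 to 156971799), which encodes a latent ligand released by removal of its CUB domain, had 767, 1021 and 667 expected counts and 10.3, 12.6 and 11.98 TPM. It was similar in all libraries, with a coefficient of variation of 10.2% (adjusted p = 0.9999 in edgeR). PDGFA (ENSG00000197461.13, chromosome 7, 497258 to 520700), which encodes the ligand best known for driving oligodendrocyte precursors, had only 19, 19 and 15 expected counts. Its level was 0.31, 0.30 and 0.50 TPM, with a highest Poisson 95% limit of 0.82 TPM in replicate 3, so it stayed under 1 TPM in every library. The higher TPM of replicate 3 came with a shorter weighted length, 1749 bases against 2627 and 2716 in replicates 1 and 2, at like CPM of 0.55, 0.49 and 0.50 in replicates 1, 2 and 3. PDGFC exceeded PDGFA in TPM by 33.2-, 41.9- and 24.0-fold.

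Because PDGFC was level and PDGFRA was not, their order depended on the library. PDGFC minus PDGFRA was 0.93, -0.50 and -0.63 on the log2(TPM + 1) scale in replicates 1, 2 and 3, a mean of -0.06 ± 0.86 (two-sided exact permutation p = 1, n = 3). The ligand was thus higher than its receptor in replicate 1 alone, and the mean turned positive without replicate 2 (0.15) or without replicate 3 (0.22). PDGFA minus PDGFRA was -2.18, -3.88 and -3.74, negative in 3 of 3 libraries (exact permutation p = 0.25, n = 3).

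Among the ligands of PDGFRB, PDGFD was detected and PDGFB was not. PDGFD (ENSG00000170962.13, chromosome 11, 103907189 to 104164147), which like PDGFC encodes a latent ligand with a CUB domain, had 359, 444 and 201 expected counts and 3.87, 4.71 and 2.73 TPM. It was lowest in replicate 3, a pattern unlike that of PDGFRA, and its spread did not pass the test (adjusted p = 0.9999 in edgeR). PDGFB (ENSG00000100311.17, chromosome 22, 39223359 to 39244982), the ligand by which endothelium recruits pericytes, had 9, 20 and 21 expected counts and 0.10, 0.29 and 0.30 TPM. It was the only member too low for the spread test, and its highest Poisson 95% limit was 0.46 TPM. PDGFD minus PDGFRB was -1.71, -2.40 and -2.87 and PDGFB minus PDGFRB -3.86, -4.55 and -4.39 on the log2(TPM + 1) scale, so both ligands lay under the receptor in 3 of 3 libraries (two-sided exact permutation p = 0.25 for each, n = 3).

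Over all 4 PDGF ligands the summed TPM was 14.6, 17.9 and 15.5 in replicates 1, 2 and 3, while the summed TPM of the 2 PDGF receptors was 19.9, 47.3 and 45.3. The ligand sum varied little, and the receptor sum was low in replicate 1. PDGFC made up 70.6%, 70.3% and 77.2% of the ligand TPM and PDGFD 26.6%, 26.4% and 17.6%. PDGFA and PDGFB together made up 2.81%, 3.30% and 5.16%.

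KITLG (ENSG00000049130.16, chromosome 12, 88492793 to 88580471), which encodes the membrane-bound and shed stem cell factor, had 1266, 2207 and 1438 expected counts and 9.85, 16.4 and 13.8 TPM. Replicate 1 was lowest, by -0.51 log2 CPM from replicates 2 and 3 on average, and by -0.15 once the length trend was removed, a spread that did not pass the test (adjusted p = 0.9999 in edgeR). KITLG minus KIT was -1.12, -0.27 and -0.60 on the log2(TPM + 1) scale, so the ligand lay below its receptor in 3 of 3 libraries (two-sided exact permutation p = 0.25, n = 3). In CPM, without length scaling, KITLG was above KIT in replicate 2, at 57.5 against 54.4, and below it in replicates 1 and 3. Ligand and receptor were thus both detected for 1 KIT pair and for the PDGF pairs PDGFC with PDGFRA and PDGFD with PDGFRB. Bulk RNA does not show whether the same cells held both.

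**Figure D3:**
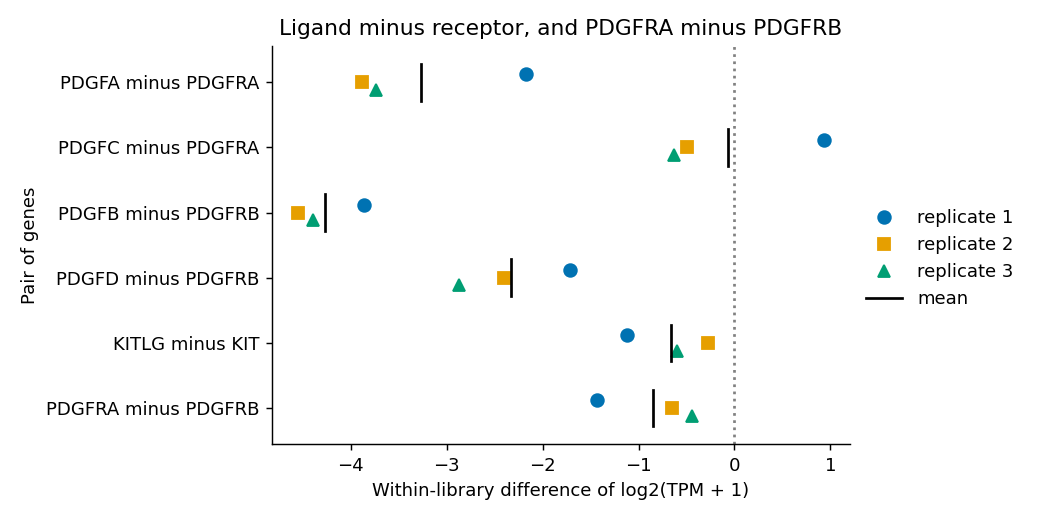
Within-library differences of log2(TPM + 1) for 6 pairs of genes (rows) in each of 3 libraries (symbols), with the mean as a black line and 0 dotted. PDGFC minus PDGFRA lies on both sides of 0, at 0.93 in replicate 1 and -0.50 and -0.63 in the others, and the other 5 pairs are negative in every library.

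Few transcripts overlap these genes. In GENCODE release 29 a second gene model (ENSG00000282278) overlaps PDGFRA on its strand and had 0 counts in all libraries, and an antisense gene of KITLG (ENSG00000281333) had 11, 3 and 9 counts. Of the 9 genes listed around 4q12 (the band that holds PDGFRA and KIT) 6 were detected and 0 of 8 tested passed the spread test in edgeR, in which 1.59% of all genes did. FIP1L1 stood at 77.1, 91.6 and 87.0 TPM, TMEM165 at 41.7 ± 2.44 TPM and SRD5A3 at 11.6 ± 2.5 TPM, while LNX1 was at 0.38 ± 0.05 TPM and GSX2 had 0 counts. KDR, a VEGF receptor gene beyond KIT, had 0.76, 1.16 and 0.77 TPM and was chosen with its values known.

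By the shape of the 3 values, the genes most like PDGFRA among 14203 detected and tested genes were FREM2, ACKR3, PIEZO1, TSPYL5 and MKLN1, at Euclidean distances of 0.072 to 0.096 between their deviations of log2 CPM from the gene mean over 3 libraries. FREM2, a basement membrane protein gene, had 1.09, 4.34 and 4.15 TPM in replicates 1, 2 and 3. The atypical chemokine receptor gene ACKR3 had 4.10, 16.6 and 17.3 TPM, and the mechanosensitive channel gene PIEZO1 had 5.60, 19.0 and 18.0 TPM. With 3 libraries such a likeness says only that replicate 1 was low by a like amount.

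The other cell types that could carry these receptors were followed by marker lists, and their part in the spread of PDGFRA was not tested. In bulk RNA, fewer cells of a type and less RNA per cell cannot be told apart. Neural crest and mesenchyme markers were detected in 15 of 16 cases, with a summed TPM of 842, 1625 and 1189 in replicates 1, 2 and 3. The sum was lowest in replicate 1, as was PDGFRA, and higher in replicate 2 than in replicate 3, where PDGFRA was close. Of the 15 detected members 11 had their lowest TPM in replicate 1, while SOX10 at 29.1, 22.4 and 15.2 TPM and POSTN at 2.38, 2.02 and 1.31 TPM were highest there and COL3A1 and FOXC1 lay between the other libraries. By the same count 15 of 19 detected brake genes and 23 of 35 signal transducers, described below, were lowest in replicate 1. The share over all detected genes is not given here, so such counts do not set a marker list apart. Of the 15 tested crest and mesenchyme markers 1 passed the spread test (1.59% over all genes tested). This was COL1A1, a fibrillar collagen gene, at 4.62, 18.3 and 12.9 TPM (adjusted p = 0.00966 in edgeR, 0.0666 with a common dispersion, and 0.9997 without replicate 2). The median deviation of replicate 1 in this list was -0.48 log2 CPM, and the highest members were COL1A2 at 278 ± 103, PRRX1 at 206 ± 108 and TWIST1 at 189 ± 48.6 TPM, with FOXC2 at 0.003 ± 0.006 TPM.

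Oligodendrocyte precursor markers were detected in 4 of 10 cases, among them PTPRZ1 at 45.4 ± 2.25, SOX10 at 22.2 ± 7.0 and CSPG4 at 7.08 ± 1.86 TPM, and their summed TPM was 114.5, 104 and 92.3, highest in replicate 1. The defining factors OLIG2, at 0.09, 0.07 and 0.02 TPM, and NKX2-2, with 0 counts in all libraries, were at or near 0. Pericyte and smooth muscle markers were detected in 10 of 12 cases, with NOTCH3 at 40.8 ± 5.04, TAGLN at 19.2 ± 5.43 and ACTA2 at 15.7 ± 1.64 TPM. Their summed TPM was 99.4, 137 and 114, lowest in replicate 1, as were the sums of the signal transducer and brake lists below. Of the 10 detected members 7 had their lowest TPM in replicate 1, again without a share over all detected genes beside it. ACTA2 at 17.2, 15.8 and 13.9 TPM and KCNJ8 at 3.89, 2.71 and 2.97 TPM were highest there, and MCAM lay between the other libraries. ABCC9 at 0.26 ± 0.03 and MYH11 at 0.11 ± 0.08 TPM were not detected, and 0 of 11 tested members passed the spread test in edgeR (1.59% over all genes tested). SOX10 stands in the crest list as well and CSPG4 in the pericyte list.

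For the cell types known for KIT, melanocyte markers were detected in 3 of 8 cases and summed to 63.2, 40.0 and 23.6 TPM in replicates 1, 2 and 3, while KIT spanned 0.05 log2 CPM. The pigment granule gene PMEL had 44.6, 28.9 and 17.6 TPM (adjusted p = 0.00675 in edgeR, 0.0586 with a common dispersion, and 0.968 without replicate 3) and the melanin enzyme gene DCT had 6.31, 2.76 and 1.66 TPM (adjusted p = 0.00785, and 0.0579 to 0.9999 with any 1 library left out), both highest in replicate 1, with MLANA at 2.95 ± 2.72, TYR at 0.71 ± 0.87 and OCA2 at 0.32 ± 0.12 TPM. Most of the melanocyte sum came from PMEL. MITF, the detected marker besides PMEL and DCT, was level at 2.47, 2.67 and 2.43 TPM. Of the undetected markers MLANA, TYR and SLC45A2 were highest in replicate 1, and TYRP1 and OCA2 in replicate 2. Of 10 mast cell and blood progenitor markers 2 were detected, HDC at 2.42 ± 0.36 and GATA2 at 2.26 ± 1.05 TPM, RUNX1 was at 1.06 ± 0.48 TPM, and CPA3, MS4A2 and TPSB2 had 0 counts. Of 10 endothelium and platelet markers only VWF was detected, at 1.5 ± 0.43 TPM, with ITGA2B at 1.73 ± 1.08 and TIE1 at 0.85 ± 0.28 TPM, and GP9 and PF4 at 0 counts. Of 10 markers of primitive endoderm and early mesoderm 0 were detected, the highest being SOX7 at 0.48 ± 0.06 TPM, MESP1 at 0.33 ± 0.27 TPM and TBX6 at 0.25 ± 0.07 TPM, and HAND1 and SOX17 had 0 counts.

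The enzymes and co-receptors that PDGF and KIT ligands use were largely present, 9 of 11 detected. PLAT (tissue plasminogen activator), which cleaves latent PDGF-C, stood at 10.98, 15.7 and 10.2 TPM, a level like that of PDGFC. PLAU (urokinase), which cleaves latent PDGF-D, stood at 8.86, 14.2 and 9.69 TPM, while ST14, which encodes another PDGF-D protease, was at 0.05, 0.13 and 0.21 TPM. FURIN, a proprotein convertase that processes PDGF-A and PDGF-B, was at 12.1 ± 1.45 TPM, ADAM17, a sheddase of KITLG, at 21.4 ± 7.12 TPM and NRP1, a co-receptor, at 26.4 ± 4.38 TPM. PLAT, PLAU and FURIN were named after their values were seen. MMP9, another protease known to release KITLG, was at 0.75 ± 0.41 TPM. LRP1, a large endocytic receptor that binds PDGFRB, had 20.5, 39.4 and 48.9 TPM, with replicate 1 lowest as for PDGFRA. It was the 1 of 10 tested genes that passed the spread test (adjusted p = 0.0093 in edgeR), which 1.59% of all genes tested did. LRP1 lost the call when the length trend was removed (adjusted p = 0.21), where PDGFRA kept it, and with any 1 library left out (adjusted p = 0.0783 to 0.9999).

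Of 13 related receptors and ligands 7 were detected and 1 of 8 tested passed the spread test (1.59% over all genes tested). That gene was VEGFD, a lymphatic growth factor gene, at 23.3, 69.1 and 56.0 TPM (adjusted p = 0.0385 in edgeR, 0.0631 with DESeq2's scaling and dispersion trend, and 0.0856 to 0.9999 with any 1 library left out), again lowest in replicate 1. VEGFA followed at 29.2 ± 5.10 and VEGFB at 22.4 ± 3.86 TPM. The receptors of the same kinase class outside the members, FLT3 at 0.08 ± 0.04 TPM and CSF1R at 0.04 ± 0.06 TPM, were not detected, although the CSF1R ligand gene CSF1, named after its values were seen, was at 14.3 ± 2.77 TPM.

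Downstream, all 35 listed signal transducers were detected and 0 of 35 passed the spread test in edgeR. Since 1.59% of all genes tested passed, 0 in a list of this size does not set it apart. Their median deviation of replicate 1 was -0.15 log2 CPM, and the highest were the phospholipase gene PLCG1 at 206 ± 52.9, the adaptor gene SHC1 at 184 ± 35.3 and the kinase gene MAP2K2 at 120.4 ± 13.5 TPM. Of 20 genes that restrain receptor signalling or turn receptors over 19 were detected, with a median deviation of -0.19 log2 CPM. The feedback inhibitors SPRY2 at 100.3 ± 14.0, SPRY1 at 77.6 ± 15.3 and DUSP6 at 70.0 ± 15.5 TPM were highest and PTPN6 was at 0.92 ± 0.18 TPM. NF1, which encodes a RAS GTPase-activating protein, was the 1 of 20 that passed the spread test (1.59% over all genes tested). It had 11.2, 20.0 and 27.7 TPM (adjusted p = 0.0116 in edgeR, 0.119 with the length trend removed, and 0.0849 to 0.9999 with any 1 library left out).

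Immediate early genes, a class of transcription factor genes that growth factor receptors and cell handling induce within minutes, were detected in 12 of 15 cases and 5 of 14 tested passed the spread test, where 1.59% of all genes did. JUN had 13.5, 49.4 and 101 TPM in replicates 1, 2 and 3 (adjusted p = 7.13e-08 in edgeR). FOS had 16.4, 35.5 and 87.4 TPM (adjusted p = 1.84e-05) and EGR1 had 21.0, 27.6 and 87.3 TPM (adjusted p = 3.66e-05). All 5, FOSB and EGR2 among them, had their lowest TPM in replicate 1, as PDGFRA did, and were highest in replicate 3, where PDGFRA was close to replicate 2. Replicate 1 lay below the mean of replicates 2 and 3 by -2.22 log2 CPM for JUN, -1.55 for FOS, -1.07 for EGR1, -3.21 for FOSB and -0.89 for EGR2, against -1.835 for PDGFRA. FOSB had 0.38, 2.45 and 9.07 TPM and EGR2 0.31, 0.37 and 1.39 TPM. In expected counts, which the test used, EGR2 was lowest in replicate 2, at 19, 16 and 77 in replicates 1, 2 and 3. Without replicate 3 FOS (adjusted p = 0.762), EGR1 (1), FOSB (0.183) and EGR2 (1) lost the call, EGR2 also without replicate 2 (0.415), while JUN kept it (0.0158). With all 3 libraries EGR2 lost the call with no filter (0.189) and with DESeq2's scaling and dispersion trend (0.275), which leaves 4 of the 5. IER3 at 68.9 ± 13.6, IER2 at 68.0 ± 13.5 and JUND at 65.1 ± 3.51 TPM were the highest of the list and did not pass the test, and EGR3 was at 0.22 ± 0.24 TPM.

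**Figure D4:**
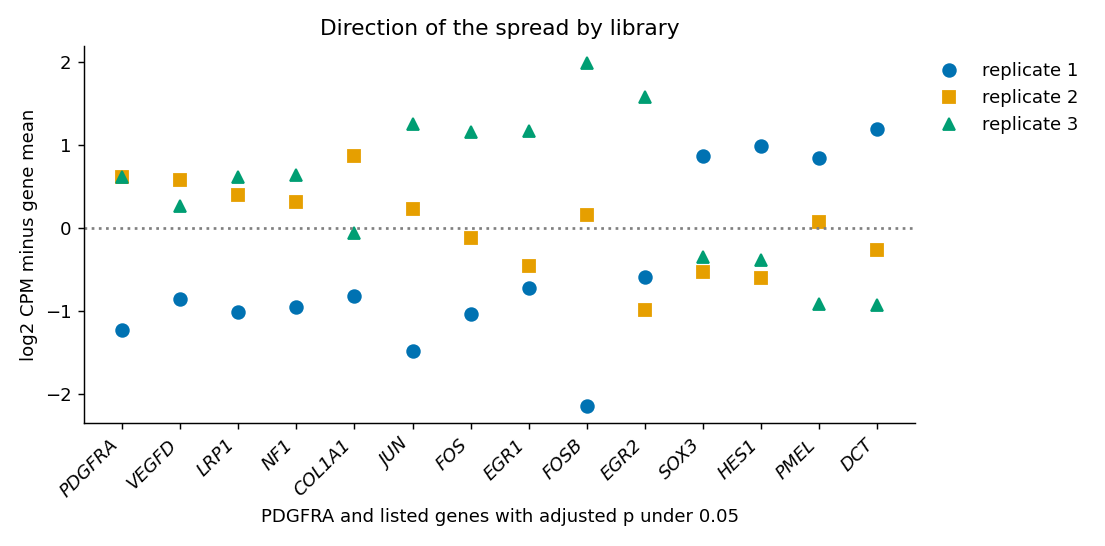
Deviation of log2 CPM from the gene mean (vertical axis) in each of 3 libraries (symbols) for PDGFRA and the 13 other listed genes with an adjusted p under 0.05 (horizontal axis). PDGFRA, VEGFD, LRP1, NF1 and COL1A1 are lowest in replicate 1, the 5 immediate early genes are highest in replicate 3, and SOX3, HES1, PMEL and DCT are highest in replicate 1.

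Against the direction of PDGFRA, the neural progenitor list held 2 of 15 tested genes that passed the spread test (1.59% over all genes tested), both highest in replicate 1. These were SOX3, a neural stem cell factor gene, at 85.8, 36.1 and 42.0 TPM (adjusted p = 0.0112 in edgeR) and the NOTCH target HES1 at 35.5, 13.3 and 15.8 TPM (adjusted p = 0.0161). With any 1 library left out both lost the call, at adjusted p of 0.115 to 0.9999 for SOX3 and 0.0984 to 0.9999 for HES1. The median deviation of replicate 1 in this list was 0.24 log2 CPM, against -0.48 in the crest and mesenchyme list and -0.005 over all genes tested. None of the list medians given here had the length trend removed, so differences in transcript length between lists remain in them. The progenitor list was not uniform. Of its 14 detected members 7 had their highest TPM in replicate 1, and 3, namely NES, SOX9 and PROM1, their lowest. These counts too have no share over all detected genes beside them. The summed TPM of the progenitor list, mostly that of VIM, was 2901, 2961 and 2605 in replicates 1, 2 and 3, and so was not highest in replicate 1.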

How the data were processed

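Polyadenylated RNA of 3 wild-type pNPC replicates was sequenced, with libraries made by a NEBNext Ultra II DNA kit per the labels' protocols. RSEM 1.3.1, STAR 2.7.11a, Trim Galore 0.6.10 and the build GRCh38 stand in the submitters' processing notes, without role or order. Annotation release and use of strand: not given in the sources used here, so antisense reads may be included. Each library has an RSEM gene table, per the file headers. The deposited expected counts are estimated reads per gene, not normalized, and were rounded to whole numbers here. The deposited TPM are the authors' levels per effective length, brought to an equal total per library. The deposited FPKM, per length and reads, served as an alternative. RSEM shares reads that fit several genes among them.

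Members and lists were chosen with earlier results of these data known. The spread between replicates was tested in edgeR 4.0.16 (R 4.3.3) with TMM scaling and filterByExpr, as the residual deviance of an intercept-only fit at the trended dispersion, and adjusted over all 17046 genes (threshold 0.05). The common biological coefficient of variation was 22.6%. DESeq2 1.42.0 was used in alternatives. Pair differences used log2(TPM + 1), which understates differences of low genes. The rule for named genes took all 8 members, the 3 highest and up to 2 lowest undetected genes of each of 14 lists, all called list genes and the 5 genes most like PDGFRA. A gene that the rule names is not reported here. Other genes are marked where named, except detected or absent markers that complete a count. Gene types came from GENCODE release 29, gene coordinates and promoters from RefSeq of GRCh38.p14, 1-based. Python 3.11.15, pandas 2.3.3, numpy 2.4.6, scipy 1.17.1 and matplotlib 3.10.9 were used.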

Additional observations from a re-analysis of the deposited data

How the results depend on the processing

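With all 3 libraries PDGFRA kept its call in the 6 other settings of the edgeR fit (DESeq2 size factors, library totals, no filter, DESeq2 dispersion trend, common dispersion and length trend removed), with adjusted p between 0.000293 and 0.0144 and a deviation of replicate 1 between -1.43 and -1.85 log2 CPM. Leaving out 1 library each gave a difference between the other 2 of 0.002 to 1.84 log2 units, and the call was lost without replicate 1 (adjusted p = 0.9999). The count of genes with excess spread was 270 to 332 in those 6 settings and 95 to 117 with 1 library left out, which leaves fewer degrees of freedom. No other member passed in any of the 9 settings, with a smallest adjusted p of 0.709 and a smallest unadjusted p of 0.0257 (PDGFD without replicate 1). The count of 6 detected members became 4 at a minimum of 5 TPM, without PDGFRA and PDGFD. PDGFC minus PDGFRA lay between -0.56 and 0.22 with 1 library left out and was positive at 0.15 without replicate 2 and 0.22 without replicate 3. The other 5 pair differences kept the sign of their mean under a pseudocount of 0.1, FPKM, CPM without length scaling and each library left out. In CPM, however, KITLG lay above KIT in replicate 2 (57.5 against 54.4), so that order in every library depended on length scaling. Of the 13 other listed genes with a call, 6 lost it under a common dispersion (VEGFD, LRP1, NF1, SOX3, COL1A1 and PMEL, adjusted p = 0.0586 to 0.214), VEGFD also with no filter (0.0603). PRRX1 gained one with the length trend removed (0.00426), MLANA under a common dispersion (0.00214) and DUSP6 without replicate 1 (0.028). No paired analysis was possible because the study has 1 group. PDGFA and PDGFB rest on 9 to 21 counts a library, which limits any statement on their spread.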
